A study of Mus musculus with 9 samples.

Results

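The insulin receptor signaling genes are 10 core genes of the pathway by which the liver responds to insulin: Insr, Irs1, Irs2, Pik3r1, Pik3ca, Akt1, Akt2, Foxo1, Foxo3, and Ptpn1. They were chosen by gene symbol, with the condition of a value above 0 in at least 1 liver. All 10 of them met it, out of 23183 gene symbols measured. Liver RNA was sequenced from 9 male mice of the inbred strain C57BL/6J at postnatal day 100, with 1 library per mouse and 3 mice per group. The mice of the ND group (numbers 6, 7, and 9) ate a normal diet with 14% fat for 10 weeks. The mice of the HFD group (1, 2, and 3) ate a high-fat diet with 60% fat for the same 10 weeks. The mice of the PRF 50 group (3, 9, and 10) ate the high-fat diet for 10 weeks and received 50 mg/kg of PRF by mouth each day during the last 5 of them. PRF is a fraction of Citrus sunki leaves that is rich in polymethoxyflavones, which are plant flavonoids with several methoxy groups. The methods state a fast of 8 h before blood and organs were taken. They also place an oral glucose tolerance test on the final day, and whether the sequenced livers came after a glucose dose is not given in the sources used here. Whether the ND and HFD mice received the carrier of PRF is not given in the sources used here, so PRF and its carrier cannot be told apart. A mouse number that occurs in 2 groups belongs to different animals.

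Insulin binds the insulin receptor on the hepatocyte, and the activated receptor phosphorylates the adapter proteins IRS1 and IRS2. These recruit phosphoinositide 3-kinase, whose lipid product brings the kinases AKT1 and AKT2 to the membrane, where they are activated. AKT phosphorylates the transcription factors FOXO1 and FOXO3 and keeps them out of the nucleus, which lowers the expression of gluconeogenic genes, while other branches raise the expression of glycolytic and lipogenic genes. Most of this signaling runs through phosphorylation, which RNA does not show, so the values below are transcript levels and not signaling activity.

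The values of each gene are taken as log2(FPKM + 1), where FPKM counts the sequenced fragments of a gene relative to its transcript length and to the size of the library. The most common ratio between low values of different mice gives relative sequencing depths from 0.963 to 1.60, with HFD mouse 1 set to 1, and the absolute depth is unknown. Of 10 hepatocyte markers, 9 are in the tables, with a summed level between 16824 and 26121 FPKM in the 9 livers and Apoa1 as the most abundant. Albumin (Alb) is listed at 0 in all 9, so a listed 0 cannot be read as absence of the transcript. Of 7 adipocyte and pancreas markers, 6 (Lep, Plin1, Ins1, Ins2, Cpa1, and Prss2) are listed at 0 in all 9. The library of ND mouse 6 stood apart in its balance between long and short transcripts. On the log2 scale, its median deviation from the mean of the 9 livers was -0.12 over the 1939 genes with the longest transcripts and 0.22 over the 1939 with the shortest, a gap of -0.34. The same gap was between -0.09 and 0.14 in the other 8 livers. For several results, values without ND mouse 6 are given beside those with it. HFD mouse 1 had the lowest summed level of sinusoidal endothelial markers, at 19.2 FPKM, against 45.7 to 83.0 FPKM in the other 8.

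The levels of the 10 genes, compared in FPKM because this unit is scaled by transcript length, covered a wide range. Akt2 was the most abundant, with a median of 30.5 FPKM over the 9 livers (lowest 28.4, highest 35.3), and none of its values overlapped those of the next gene. Akt1 (median 18.3), Insr (15.2), and Pik3r1 (14.9) followed, and each of them overlapped its neighbor in this order. Foxo1 had a median of 8.40, Foxo3 of 5.49, Ptpn1 of 4.91, and Pik3ca of 4.63, again with overlap between neighbors. Pik3ca lay above Irs1 in all 9 livers, without overlap. The receptor substrates were lowest, at 1.77 for Irs1 (1.31 to 2.26) and 1.69 for Irs2 (1.23 to 2.59), and Irs1 was above Irs2 in 6 of 9 livers. The plot of levels below shows these steps, with clear gaps below Akt2 and below Pik3ca.

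**Figure D1:**
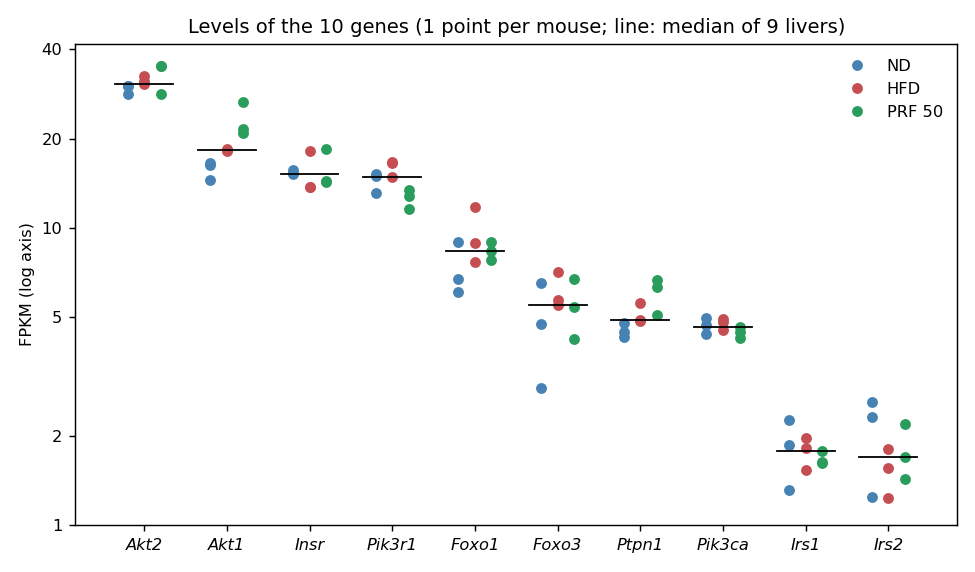
Levels of the 10 genes in FPKM on a log axis, with 1 point per mouse, color for the ND, HFD, and PRF 50 groups, and a line at the median of 9 livers. Akt2 lies above all other genes, with a median of 30.5 FPKM, and Irs1 and Irs2 lie lowest, at 1.77 and 1.69.

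Which of these genes differed between the diets, and between mice with and without PRF on the high-fat diet, was asked in 3 comparisons of 3 against 3 mice. Differences were tested with limma, a linear model that moderates each gene's variance across genes, on the log2 values of all genes whose average over the 6 compared mice reached 1 FPKM. The p-values were adjusted over all these genes by the Benjamini-Hochberg method, and a gene was called at an adjusted p under 0.05. All 10 genes passed the minimum level in each comparison. None was called in HFD vs. ND (0 of 10), where 1.33% of the 9978 tested genes were called, 0.702% higher and 0.631% lower. None was called in PRF 50 vs. HFD (0 of 10), where 3.59% of 10084 genes were called, 1.43% higher and 2.16% lower. None was called in PRF 50 vs. ND (0 of 10), where 0.458% of 10051 genes were called, 0.159% higher and 0.298% lower. The numbers of genes called depend on single mice: leaving out 1 mouse gave 35 to 140 in HFD vs. ND (133 with all mice), 15 to 242 in PRF 50 vs. HFD (362), and 4 to 71 in PRF 50 vs. ND (46), with 0 of the 10 core genes in each case and in all other alternatives. The 3 comparisons share their groups and are not independent of each other.

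By an unadjusted limma p-value under 0.05, 0 of the 10 genes stood out in HFD vs. ND, against a background of 15.1% of all tested genes. For PRF 50 vs. HFD, it was 2 of 10 (Akt1 and Pik3r1), against 20.2%, and in PRF 50 vs. ND 2 of 10 (Akt1 and Ptpn1), against 12.5%. The 3 values of each group did not overlap in 3 of 10 genes in HFD vs. ND (Akt1, Akt2, and Ptpn1), where 20.7% of all tested genes had no overlap. The counts were 2 of 10 (Akt1 and Pik3r1) in PRF 50 vs. HFD, against 26.2%, and 2 of 10 (Akt1 and Ptpn1) in PRF 50 vs. ND, against 19.9%. With 10 genes, these shares are near the background. The median log2 difference of the 10 genes was 0.12 in HFD vs. ND, -0.00 in PRF 50 vs. HFD, and 0.08 in PRF 50 vs. ND. Over all tested genes, the medians were -0.01, -0.02, and -0.03. The widest 95% confidence interval among the 10 genes reached 0.52 to each side of its difference in HFD vs. ND. It reached 0.37 in PRF 50 vs. HFD and 0.57 in PRF 50 vs. ND. Smaller differences of single genes could go undetected. These intervals are not adjusted for the number of genes tested, so larger differences could also miss the threshold.

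**Figure D2:**
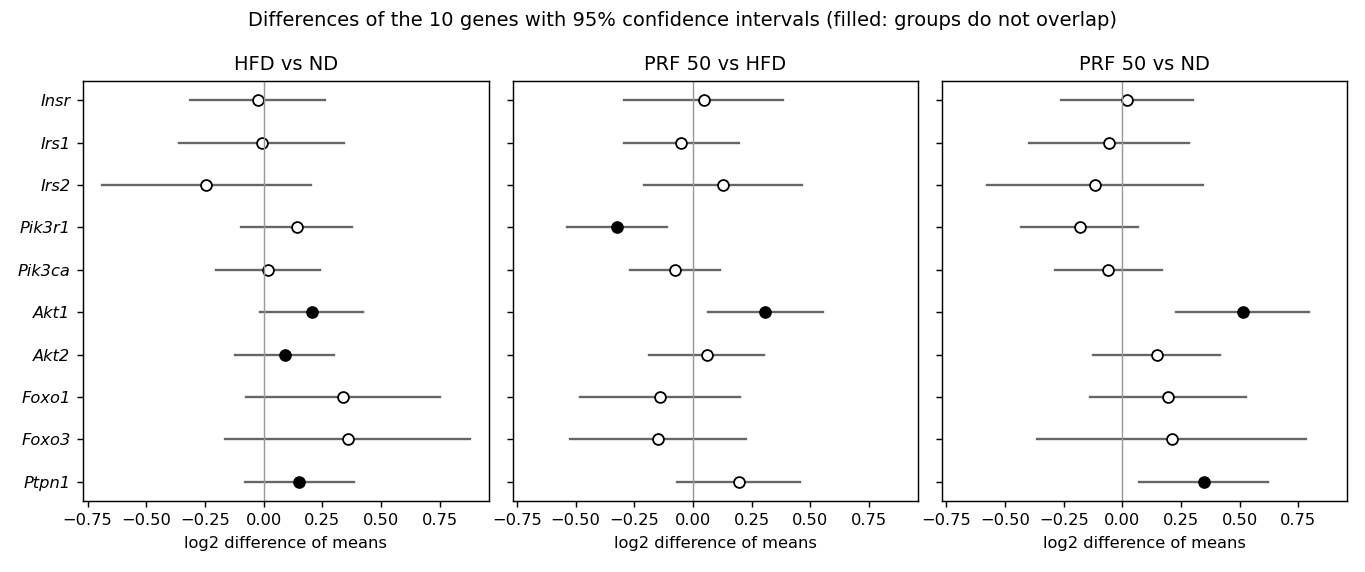
Differences of group means on the log2(FPKM + 1) scale (x axis) for the 10 genes (y axis) in each comparison, with 95% confidence intervals from limma and filled points where the groups do not overlap. Akt1 is filled in all 3 panels, with differences of 0.20, 0.31, and 0.51.

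Values by mouse are given below on the log2(FPKM + 1) scale, in the order of the mouse numbers given above. The receptor gene Insr (GRCm38 chr8:3122061-3279617, minus strand, protein coding) had values of 4.03, 4.02, and 4.06 in ND mice, 4.26, 3.88, and 3.88 in HFD mice, and 3.95, 4.28, and 3.93 in PRF 50 mice. HFD mouse 1 and PRF 50 mouse 9 were highest, and the ND values lay inside the range of both other groups. Its log2 difference was -0.03 in HFD vs. ND (95% confidence interval -0.31 to 0.26, adjusted p = 0.946) and 0.05 in PRF 50 vs. HFD (-0.29 to 0.38, adjusted p = 0.900). Here and below, fewer cells of a type and less RNA per cell cannot be told apart in RNA from whole liver.

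Irs1 (chr1:82233101-82291416, minus strand), which encodes an adapter phosphorylated by the receptor, had values of 1.52, 1.70, and 1.21 in ND mice, 1.57, 1.34, and 1.49 in HFD mice, and 1.47, 1.40, and 1.39 in PRF 50 mice. The ND mice spanned the values of all others. The group means were 1.48 ± 0.25 (SD, n = 3), 1.47 ± 0.12, and 1.42 ± 0.05, respectively. Irs2 (chr8:10984681-11008458, minus strand), the other main adapter in liver, had values of 1.16, 1.72, and 1.84 in ND mice, 1.49, 1.16, and 1.35 in HFD mice, and 1.43, 1.67, and 1.28 in PRF 50 mice. ND mice 7 and 9 were above every HFD mouse, while ND mouse 6 was level with the lowest of them. Its log2 difference in HFD vs. ND was -0.25 (-0.69 to 0.20, adjusted p = 0.597) with all mice and -0.45 (adjusted p = 0.211) without ND mouse 6, but -0.11 without ND mouse 9. For PRF 50 vs. ND, it was -0.12 with all mice (adjusted p = 0.834), -0.32 without ND mouse 6 (adjusted p = 0.521), and changed sign to 0.02 without ND mouse 9.

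The promoters of both adapter genes hold the core of the insulin response element, the sequence through which FOXO proteins are known to act on insulin-repressed genes, and they are shown for this reason. The windows come from RefSeq (GRCm38.p6) and reach from 250 bases before to 50 bases after a start site. For 9 of the 10 genes, 14 such windows were found. They were searched on both strands for CAAAACA (insulin response core) and GTAAACA (FOXO consensus). CAAAACA was found in 2 of the 14 windows, those of Irs1 (2 matches) and Irs2 (1 match), and in 6.28% of the 32851 promoters of this length. GTAAACA was found in 1 of the 14, a window of Akt1, and in 3.65% of all promoters. The matches below are on the opposite strand, so that the capitals show TGTTTTG for Irs1 (chr1:82291517-82291576, minus strand) and Irs2 (chr8:11008933-11008992, minus strand) and TGTTTAC for Akt1 (chr12:112675012-112675071, minus strand). For Irs1, the match farther from the start site is shown. A match is a stretch of letters and does not show binding.
Irs1: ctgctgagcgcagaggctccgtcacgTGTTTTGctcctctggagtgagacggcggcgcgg
Irs2: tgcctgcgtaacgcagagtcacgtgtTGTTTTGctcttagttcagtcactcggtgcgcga
Akt1: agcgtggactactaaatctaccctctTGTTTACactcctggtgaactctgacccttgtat

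Phosphoinositide 3-kinase consists of a catalytic and a regulatory subunit. Pik3r1 (chr13:101680563-101768217, minus strand), the gene of the main regulatory subunits, had values of 4.00, 3.82, and 4.02 in ND mice, 3.99, 4.14, and 4.13 in HFD mice, and 3.79, 3.65, and 3.85 in PRF 50 mice. Every PRF 50 mouse was below every HFD mouse, and the ND mice overlapped both. The log2 difference in PRF 50 vs. HFD was -0.32 (-0.54 to -0.11), and its adjusted p of 0.104 did not pass the threshold. Pik3ca (chr3:32397671-32468486, plus strand), the gene of the alpha catalytic subunit, had values of 2.43, 2.57, and 2.52 in ND mice, 2.54, 2.57, and 2.47 in HFD mice, and 2.40, 2.45, and 2.49 in PRF 50 mice. It varied least of the 10 genes in FPKM terms, from 4.27 to 4.96, and all groups overlapped. Its confidence intervals stayed between -0.29 and 0.24 in the 3 comparisons.

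Of 12 other PI3K subunits and lipid phosphatases, 6 were tested in each comparison and 0 were called by limma. At an unadjusted limma p-value under 0.05, Pik3cb was the only one of them, higher in HFD vs. ND and lower in PRF 50 vs. HFD. In either direction, 15.1% and 20.2% of all tested genes reached this level in these comparisons. Pik3cb, the gene of the beta catalytic subunit, had values of 2.01, 2.18, and 2.18 in ND mice, 2.55, 2.56, and 2.68 in HFD mice, and 2.09, 2.27, and 2.26 in PRF 50 mice. The HFD mice were above all others, and the ND and PRF 50 mice overlapped. Its log2 difference was 0.47 in HFD vs. ND (0.23 to 0.71, adjusted p = 0.0902) and -0.39 in PRF 50 vs. HFD (-0.61 to -0.17, adjusted p = 0.0734). Since the HFD mice enter both comparisons, the opposite signs are not independent. Inppl1, the gene of the lipid phosphatase SHIP2, had the smallest p of this list in PRF 50 vs. ND, with a log2 difference of 0.17 (adjusted p = 0.502).

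The kinase gene Akt1 (chr12:112653821-112674884, minus strand) had values of 3.95, 4.11, and 4.13 in ND mice, 4.27, 4.26, and 4.28 in HFD mice, and 4.49, 4.78, and 4.46 in PRF 50 mice. The groups formed 3 steps without overlap, with ND lowest and PRF 50 highest, a pattern described after the values were seen. Of all tested genes, 20.7% had no overlap in HFD vs. ND, 26.2% in PRF 50 vs. HFD, and 19.9% in PRF 50 vs. ND. The share without overlap in all 3 is not given here. The log2 difference of Akt1 was 0.20 in HFD vs. ND (-0.01 to 0.42, adjusted p = 0.368), 0.31 in PRF 50 vs. HFD (0.06 to 0.55, adjusted p = 0.158), and 0.51 in PRF 50 vs. ND (0.23 to 0.80, adjusted p = 0.146). None of the 3 passed the threshold. The adjusted p of PRF 50 vs. ND lay between 0.0531 (all 9 mice in 1 fit) and 0.314 (without ND mouse 6) over the alternatives tried. In FPKM, Akt1 was 14.5 to 16.6 in the ND mice, 18.2 to 18.4 in the HFD mice, and 21.0 to 26.6 in the PRF 50 mice. Akt2 (chr7:27591552-27640826, plus strand), the kinase gene most tied to glucose metabolism, had values of 4.88, 4.96, and 4.96 in ND mice, 4.98, 5.02, and 5.07 in HFD mice, and 5.18, 5.18, and 4.88 in PRF 50 mice. The HFD mice were just above the ND mice, while PRF 50 mouse 10 was level with the lowest ND mouse. Its log2 difference in PRF 50 vs. HFD was 0.06 (-0.19 to 0.30, adjusted p = 0.809). It was 0.0064 without PRF 50 mouse 9 and 0.16 without PRF 50 mouse 10.

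Markers of Kupffer cells, the resident macrophages of the liver, were high in the same group as Akt1. Of the 10 markers, 9 were called higher in PRF 50 vs. HFD and 0 lower, where 1.43% of all tested genes were called higher, with a median log2 difference of 1.45 against -0.02 over all tested genes. Their summed level was 92.4, 173.0, and 217.2 FPKM in the ND mice, 110.7, 177.0, and 177.1 FPKM in the HFD mice, and 610.1, 369.6, and 391.3 FPKM in the PRF 50 mice. All 3 PRF 50 mice were above all other mice, with Cd5l as the most abundant marker and no marker at 0 in all livers. The count of 9 was 1 without HFD mouse 2 and 0 without HFD mouse 3, and it was 1 without PRF 50 mouse 3, 5 without PRF 50 mouse 10, and 2 with no minimum level. These were alternatives chosen after the data had been seen. Between PRF 50 and ND, limma called 0 of the 10 markers (up to 3 in the alternatives), and all 10 were higher at an unadjusted limma p-value under 0.05, against 12.5% of all tested genes in either direction. Of 9 recruited myeloid markers, 5 were tested in PRF 50 vs. HFD and all 5 were higher (47.0% of all tested genes). By an unadjusted limma p-value under 0.05, 4 of them were higher (20.2% of all tested genes in either direction), with 0 called. Their summed level was 18.9, 37.1, and 52.1 FPKM in the ND mice, 30.3, 47.4, and 46.8 FPKM in the HFD mice, and 192.7, 69.2, and 94.3 FPKM in the PRF 50 mice. Lyz2 alone gave 129.1, 47.2, and 85.2 FPKM of the PRF 50 sums. S100a8 in PRF 50 mouse 10 was 1.30 on the log2 scale, below every HFD mouse. Of the untested markers, Gpnmb had a lower mean in PRF 50 (0.08) than in HFD mice (0.17), and Itgam, Ccr2, and Trem2 had a higher one. The part of the Kupffer cell and recruited myeloid markers in the values of Akt1 and Ptpn1 was not tested.

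**Figure D3:**
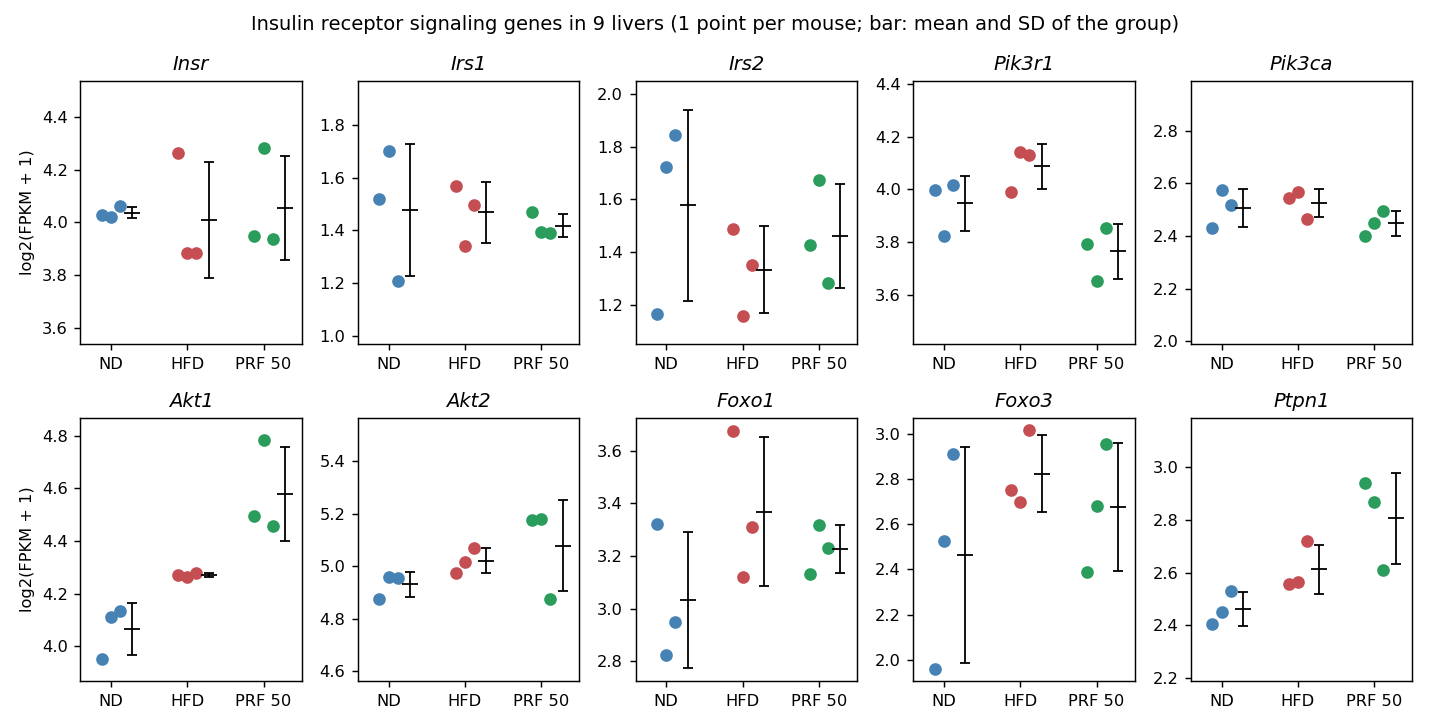
Values of the 10 genes on the log2(FPKM + 1) scale, with 1 point per mouse by group and the mean ± SD of each group beside the points (the y axes differ between genes). Akt1 shows 3 separate steps, with the ND mice at 3.95 to 4.13, the HFD mice at 4.26 to 4.28, and the PRF 50 mice at 4.46 to 4.78.

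Foxo1 (chr3:52268336-52353221, plus strand) encodes the main transcription factor that AKT restrains in the liver. Its values were 3.32, 2.83, and 2.95 in ND mice, 3.68, 3.12, and 3.31 in HFD mice, and 3.13, 3.32, and 3.23 in PRF 50 mice. HFD mouse 1 was highest and ND mouse 7 lowest, and all groups overlapped. The log2 difference was 0.34 in HFD vs. ND (-0.08 to 0.75, adjusted p = 0.437) with all mice, 0.48 without ND mouse 6 (adjusted p = 0.266), and 0.18 without HFD mouse 1. Its value in PRF 50 vs. HFD was -0.14 (-0.48 to 0.20, adjusted p = 0.644), and it changed sign to 0.01 without HFD mouse 1. Foxo3 (chr10:42181841-42276755, minus strand), a related factor, had values of 1.96, 2.53, and 2.91 in ND mice, 2.75, 2.70, and 3.02 in HFD mice, and 2.39, 2.68, and 2.96 in PRF 50 mice. ND mouse 6 was lowest of all 9, and the groups overlapped. The log2 difference in HFD vs. ND was 0.36 (-0.16 to 0.88, adjusted p = 0.514) with all mice and 0.10 (adjusted p = 0.788) without ND mouse 6, but 0.58 (adjusted p = 0.206) without ND mouse 9. For PRF 50 vs. ND, it was 0.21 with all mice (adjusted p = 0.754), changed sign to -0.04 without ND mouse 6 (adjusted p = 0.956), and was 0.43 without ND mouse 9.

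Ptpn1 (chr2:167932057-167979385, plus strand) encodes the phosphatase PTP1B, which dephosphorylates the receptor and ends its signal. It had values of 2.40, 2.45, and 2.53 in ND mice, 2.55, 2.56, and 2.72 in HFD mice, and 2.94, 2.87, and 2.61 in PRF 50 mice. The ND mice were below all others, and the HFD and PRF 50 mice overlapped through PRF 50 mouse 10. The log2 difference was 0.15 in HFD vs. ND (-0.08 to 0.38, adjusted p = 0.533), 0.19 in PRF 50 vs. HFD (-0.07 to 0.46, adjusted p = 0.391), and 0.35 in PRF 50 vs. ND (0.07 to 0.62, adjusted p = 0.292). Over the 9 livers, Ptpn1 had a Pearson correlation of 0.85 with Akt1 and 0.89 with Akt2, given as a description of livers that share groups. These are the highest coefficients among all pairs of the 10 genes, with group means kept. The lowest for Ptpn1 was -0.59, with Pik3ca.

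Around the 10 genes, 106 other genes of the pathway and its targets were followed in 8 lists. In HFD vs. ND, 84 were tested, of which 0 were called higher and 1 lower, with 9 at an unadjusted limma p-value under 0.05 (10.7%). In PRF 50 vs. HFD, 84 were tested, of which 0 were called higher and 3 lower (3.57%), and 19 had an unadjusted limma p-value under 0.05 (22.6%). In PRF 50 vs. ND, 83 were tested and 0 were called (G6pc was called in 1 alternative, given below), and 10 had an unadjusted limma p-value under 0.05. These shares lie near those of all tested genes given above. These counts leave out some pathway genes that were tested but are not reported here. The calls are marked in the plot of the lists below.

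**Figure D4:**
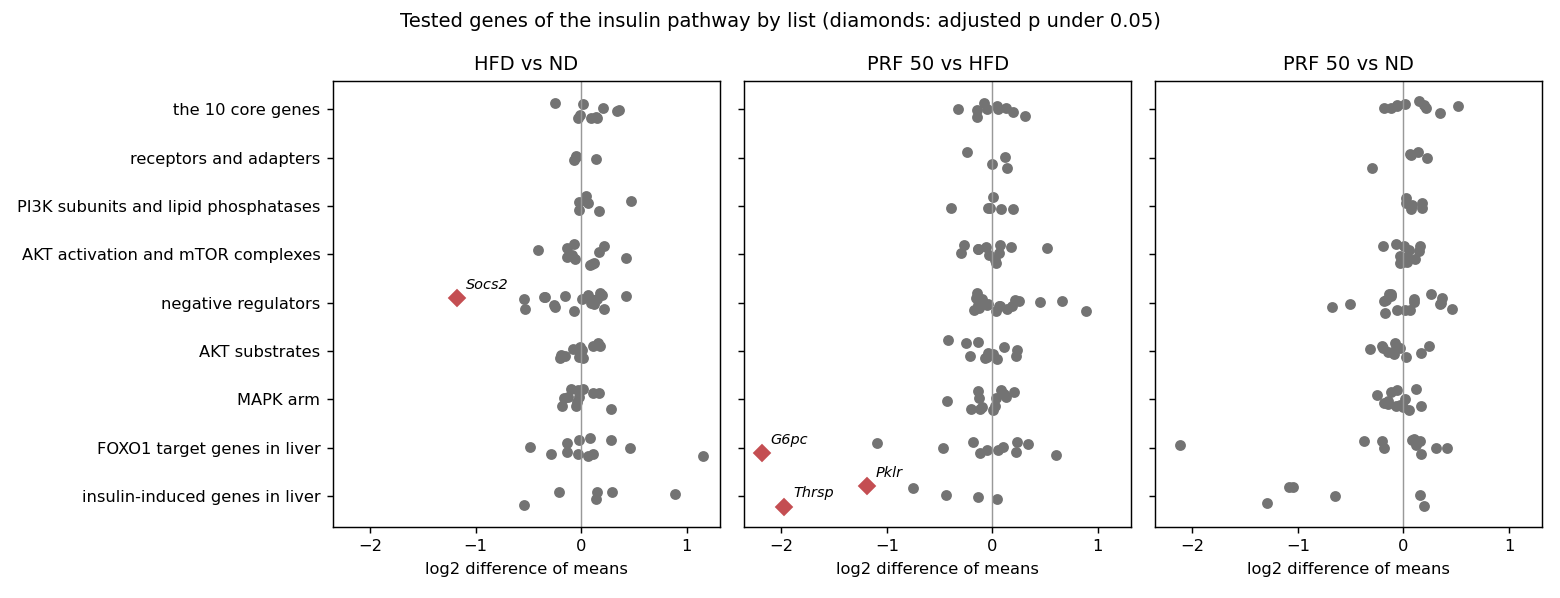
Log2 differences of group means (x axis) of every tested gene of the 10 core genes and of the 8 other lists (y axis) in the 3 comparisons, with red diamonds at an adjusted p under 0.05. Socs2 is called in HFD vs. ND, and G6pc, Thrsp, and Pklr in PRF 50 vs. HFD, all of them lower.

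Of 11 other receptors and adapters, 4 were tested in HFD vs. ND and in PRF 50 vs. HFD and 5 in PRF 50 vs. ND, and limma called 0 of them. At an unadjusted limma p-value under 0.05, the counts were 0, 1, and 1, respectively, against 15.1%, 20.2%, and 12.5% of all tested genes. Sh2b1, an adapter that enhances receptor activity, had values of 3.63, 3.59, and 3.46 in ND mice, 3.54, 3.48, and 3.50 in HFD mice, and 3.17, 3.38, and 3.25 in PRF 50 mice. The PRF 50 mice were below all others, and the ND and HFD mice overlapped. Its log2 difference was -0.24 in PRF 50 vs. HFD (-0.44 to -0.04, adjusted p = 0.170) and -0.29 in PRF 50 vs. ND (-0.54 to -0.05, adjusted p = 0.311). The docking protein gene Gab1 had the smallest p of this list in HFD vs. ND, with a log2 difference of 0.14 (-0.14 to 0.42, adjusted p = 0.622). That difference was 0.0707 without HFD mouse 1 and 0.22 without ND mouse 9.

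Of 24 negative regulators of the pathway, 19 were tested in HFD vs. ND, with 0 called higher and 1 lower (0.702% and 0.631% among all tested genes), and 1 higher and 4 lower at an unadjusted limma p-value under 0.05. Limma called 0 in the other comparisons, where the unadjusted counts were 4 higher and 0 lower of 19 in PRF 50 vs. HFD, and 3 higher and 1 lower of 18 in PRF 50 vs. ND. Among all tested genes, the unadjusted shares in either direction were 15.1% in HFD vs. ND, 20.2% in PRF 50 vs. HFD, and 12.5% in PRF 50 vs. ND. Socs2, a suppressor of cytokine and growth hormone signaling, had values of 3.45, 3.16, and 3.78 in ND mice, 1.98, 2.56, and 2.34 in HFD mice, and 2.62, 2.66, and 3.59 in PRF 50 mice. All HFD mice were below all ND and PRF 50 mice, and PRF 50 mouse 10 was in the ND range. Socs2 fell by 1.17 in HFD vs. ND (-1.62 to -0.72, adjusted p = 0.0331). The call was lost when any 1 of the 6 mice was left out (adjusted p from 0.0579 to 0.116), with all 9 mice in 1 fit (0.0757), and with no minimum level (0.102). Socs3, a suppressor that targets the receptor and its adapters, had values of 1.90, 2.83, and 1.43 in ND mice, 1.51, 1.67, and 1.37 in HFD mice, and 2.88, 2.66, and 1.66 in PRF 50 mice. PRF 50 mouse 10 lay among the HFD mice. The log2 difference in PRF 50 vs. HFD was 0.88 (0.19 to 1.58, adjusted p = 0.155), and only without that mouse did it pass the threshold, at 1.25 (adjusted p = 0.0195). Trib3, whose product binds AKT, had a log2 difference of -0.68 in PRF 50 vs. ND (-1.02 to -0.34, adjusted p = 0.107), with all PRF 50 mice below all ND mice.

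The remaining signaling lists had no calls in limma. Of 13 genes of AKT activation and the mTOR complexes, 12 were tested, and Sgk1, a kinase related to AKT, had the smallest p in HFD vs. ND (log2 difference -0.41, adjusted p = 0.297) and in PRF 50 vs. HFD (0.52, adjusted p = 0.106). Of this list, 2 had an unadjusted limma p-value under 0.05 in each of these comparisons and 0 in PRF 50 vs. ND, where the S6 kinase gene Rps6kb1 had the smallest p (-0.19, adjusted p = 0.486). Of 14 AKT substrates, 12 were tested, with 0, 4, and 0 at an unadjusted limma p-value under 0.05 in HFD vs. ND, PRF 50 vs. HFD, and PRF 50 vs. ND. Over all tested genes, 15.1%, 20.2%, and 12.5% reached this level in these comparisons, which is the background for each list here. Gys2, the liver glycogen synthase gene, had the smallest p of these substrates in PRF 50 vs. HFD, with a log2 difference of -0.42 (-0.74 to -0.11, adjusted p = 0.135) and no overlap between the groups. Mdm2 (-0.20, adjusted p = 0.437) and the GTPase-activating protein gene Tbc1d1 (0.24, adjusted p = 0.476) had it in HFD vs. ND and PRF 50 vs. ND. All 13 genes of the MAPK arm, the growth branch of insulin signaling, were tested, and 0 had an unadjusted limma p-value under 0.05 in any comparison. The smallest p of this arm belonged to the ERK1 gene Mapk3 in HFD vs. ND (0.17, adjusted p = 0.442), Rps6ka1 in PRF 50 vs. HFD (-0.43, adjusted p = 0.252), and Sos1 in PRF 50 vs. ND (-0.25, adjusted p = 0.488).

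Of the 106 genes, 21 were below the minimum level in every comparison. Of these, 20 were above 0 in at least 1 liver, and in 3 of them, Gab2, Pik3r5, and Inpp5d, all PRF 50 mice were above all other mice. The same held for 4.23% of all 6662 genes that were above 0 in at least 1 liver and tested in no comparison. The 3 genes are named after their values were seen. The adapter gene Gab2 reached at most 0.63 in ND and 0.51 in HFD mice, and was at least 0.77 in the PRF 50 group. Pik3r5, a PI3K regulatory subunit of leukocytes, was at most 0.15 and 0.14, and at least 0.34 in the PRF 50 group. Inpp5d, the gene of the leukocyte phosphatase SHIP1, was at most 0.69 and 0.70, and at least 0.81 in the PRF 50 group. The Kupffer cell markers given above were high in the same mice, and their part in these values was not tested.

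Genes that FOXO1 is known to activate lie downstream of the pathway, and their transcript levels are not read here as its activity. Of 12 such genes, all were tested in PRF 50 vs. HFD, with 0 called higher and 1 lower (1.43% and 2.16% among all tested genes). At an unadjusted limma p-value under 0.05, 0 were higher and 3 lower (20.2% of all tested genes in either direction). The median log2 difference was 0.00 against -0.02 over all tested genes. In HFD vs. ND, limma called 0 of 12, and 1 was higher and 0 lower by unadjusted limma p-value (15.1% of all tested genes). In PRF 50 vs. ND, limma called 0 of 11, and 0 were higher and 2 lower by unadjusted limma p-value (12.5%). The medians were 0.02 against -0.01 and 0.10 against -0.03, respectively. G6pc, the gene of glucose-6-phosphatase, the last enzyme of glucose release, had values of 6.17, 5.75, and 6.70 in ND mice, 6.20, 5.91, and 6.70 in HFD mice, and 3.26, 4.76, and 4.23 in PRF 50 mice. All PRF 50 mice were below all others, and the ND and HFD mice overlapped. G6pc fell by 2.19 in PRF 50 vs. HFD (-3.06 to -1.31, adjusted p = 0.0321), and its log2 difference in PRF 50 vs. ND was -2.12 (-3.01 to -1.23, adjusted p = 0.0706). The latter passed the threshold with all 9 mice in 1 fit (adjusted p = 0.0357) and had an adjusted p of 0.223 without ND mouse 6. The call in PRF 50 vs. HFD was lost without HFD mouse 1 (adjusted p = 0.0687), 2 (0.0783), or 3 (0.103), without PRF 50 mouse 3 (0.0520) or 10 (0.0625), and with no minimum level (0.0704).

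Mttp, another FOXO1 target and named after its values were seen, was not called, though all PRF 50 mice were below all others. Its mean was 6.38 in HFD and 5.91 in PRF 50 mice, a smaller step than that of G6pc. In PRF 50 vs. HFD, 26.2% of all tested genes had no overlap. The values of Mttp were 5.76, 6.09, and 5.90 in PRF 50 mice. They were 6.21, 6.20, and 6.47 in ND mice and 6.36, 6.49, and 6.28 in HFD mice. Some other FOXO1 targets in the same livers had other patterns. Pck1, the gene of phosphoenolpyruvate carboxykinase, the first committed enzyme of gluconeogenesis, had values of 9.59, 8.70, and 8.74 in ND mice, 9.64, 8.55, and 8.75 in HFD mice, and 9.35, 9.71, and 8.89 in PRF 50 mice. Igfbp1, which encodes an insulin-repressed binding protein of insulin-like growth factors, had values of 4.18, 2.98, and 3.10 in ND mice, 4.17, 2.84, and 3.59 in HFD mice, and 3.20, 4.52, and 3.02 in PRF 50 mice. Both genes overlapped between all groups and are named, with G6pc, as the textbook targets. Their log2 differences in PRF 50 vs. HFD were 0.34 (-0.41 to 1.08, adjusted p = 0.607) for Pck1 and 0.05 (-1.02 to 1.12, adjusted p = 0.966) for Igfbp1. In each group, 1 mouse had the highest value of Pck1, Igfbp1, and Foxo1 alike: ND mouse 6, HFD mouse 1, and PRF 50 mouse 9. After removal of the group means, Foxo1 had a Pearson correlation over the 9 livers of 0.89 with Pck1, 0.84 with Igfbp1, and 0.29 with G6pc, a description of a pattern picked after the values were seen. With the group means kept, the coefficients were 0.67, 0.72, and 0.06. Over the 8 livers without ND mouse 6, an alternative also chosen after the data had been seen, the coefficients with group means removed were 0.82, 0.76, and 0.40. Pdk4, the gene of a kinase that blocks pyruvate oxidation, had values of 0.34, 0.57, and 0.97 in ND mice, 0.70, 2.33, and 2.29 in HFD mice, and 0.76, 0.77, and 0.50 in PRF 50 mice. HFD mice 2 and 3 were above all others, and HFD mouse 1 lay among the ND mice. Its log2 difference passed the threshold without HFD mouse 1 alone, at 1.68 in HFD vs. ND (adjusted p = 0.0137) and -1.63 in PRF 50 vs. HFD (adjusted p = 0.00534), and was 1.15 (adjusted p = 0.256) and -1.10 (adjusted p = 0.194) with it.

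The promoters of G6pc and Igfbp1 both hold the insulin response core, and they are set side by side because the 2 genes differed in their values. For 11 of the FOXO1 targets, 12 RefSeq windows were found. The core CAAAACA, on either strand, was found in 2 of the 12 windows, against 6.28% of all promoters. GTAAACA was found in 1 of the 12, a window of Sesn1, against 3.65% of all promoters. The window of Igfbp1 (GRCm38.p6 chr11:7197653-7197712, plus strand) shows the core CAAAACA as written, and that of G6pc (chr11:101367516-101367575, plus strand) as TGTTTTG, both in capitals. Whether the core has a part in the values of these genes was not tested.
G6pc: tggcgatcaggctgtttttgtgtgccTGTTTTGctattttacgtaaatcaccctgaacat
Igfbp1: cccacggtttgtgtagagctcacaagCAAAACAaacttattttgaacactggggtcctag

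Genes that insulin induces in the liver are the other downstream list. Of 7 such genes, 6 were tested. In PRF 50 vs. HFD, 0 were called higher and 2 lower (2.16% lower among all tested genes), and 0 higher and 4 lower at an unadjusted limma p-value under 0.05 (20.2% of all tested genes in either direction). Of the 6, 1 had a positive log2 difference, against 47.0% of all tested genes, and the median was -0.60 against -0.02 over all tested genes. In HFD vs. ND, limma called 0 of them, 0 were under 0.05 by unadjusted limma p-value (15.1% of all tested genes), and the median was 0.14 against -0.01. Between PRF 50 and ND, limma called 0 of them, 3 were under 0.05 by unadjusted limma p-value (12.5% of all tested genes), and the median was -0.85 against -0.03. The Kupffer cell markers and the summed recruited myeloid markers given above were high in the PRF 50 mice. The part of both in the values of this list was not tested. Pklr, the gene of liver pyruvate kinase, the last enzyme of glycolysis, had values of 7.14, 6.49, and 7.47 in ND mice, 7.27, 7.29, and 6.97 in HFD mice, and 6.10, 5.66, and 6.21 in PRF 50 mice. All PRF 50 mice were below all others, and Pklr fell by 1.19 in PRF 50 vs. HFD (-1.58 to -0.80, adjusted p = 0.0211). Its log2 difference in PRF 50 vs. ND was -1.05 (-1.64 to -0.45, adjusted p = 0.153) and -0.99 without ND mouse 6 (adjusted p = 0.359). The call in PRF 50 vs. HFD was lost without HFD mouse 2 (adjusted p = 0.0756) or 3 (0.0529) and without PRF 50 mouse 3 (0.0556).

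Thrsp, which encodes a nuclear protein that promotes fatty acid synthesis, had values of 8.74, 6.84, and 9.24 in ND mice, 9.23, 9.19, and 9.05 in HFD mice, and 7.46, 6.68, and 7.42 in PRF 50 mice. The HFD mice were above all PRF 50 mice, and ND mouse 7 was in the PRF 50 range. Thrsp fell by 1.97 in PRF 50 vs. HFD (-2.46 to -1.48, adjusted p = 0.0133), a call lost without HFD mouse 2 (adjusted p = 0.0516) or 3 (0.0529) and with all 9 mice in 1 fit (0.0643). Srebf1, the gene of a transcription factor of lipid synthesis, had the smallest p of this list in HFD vs. ND, with a log2 difference of 0.29 (-0.05 to 0.64, adjusted p = 0.423) and overlap between the groups.

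**Figure D5:**
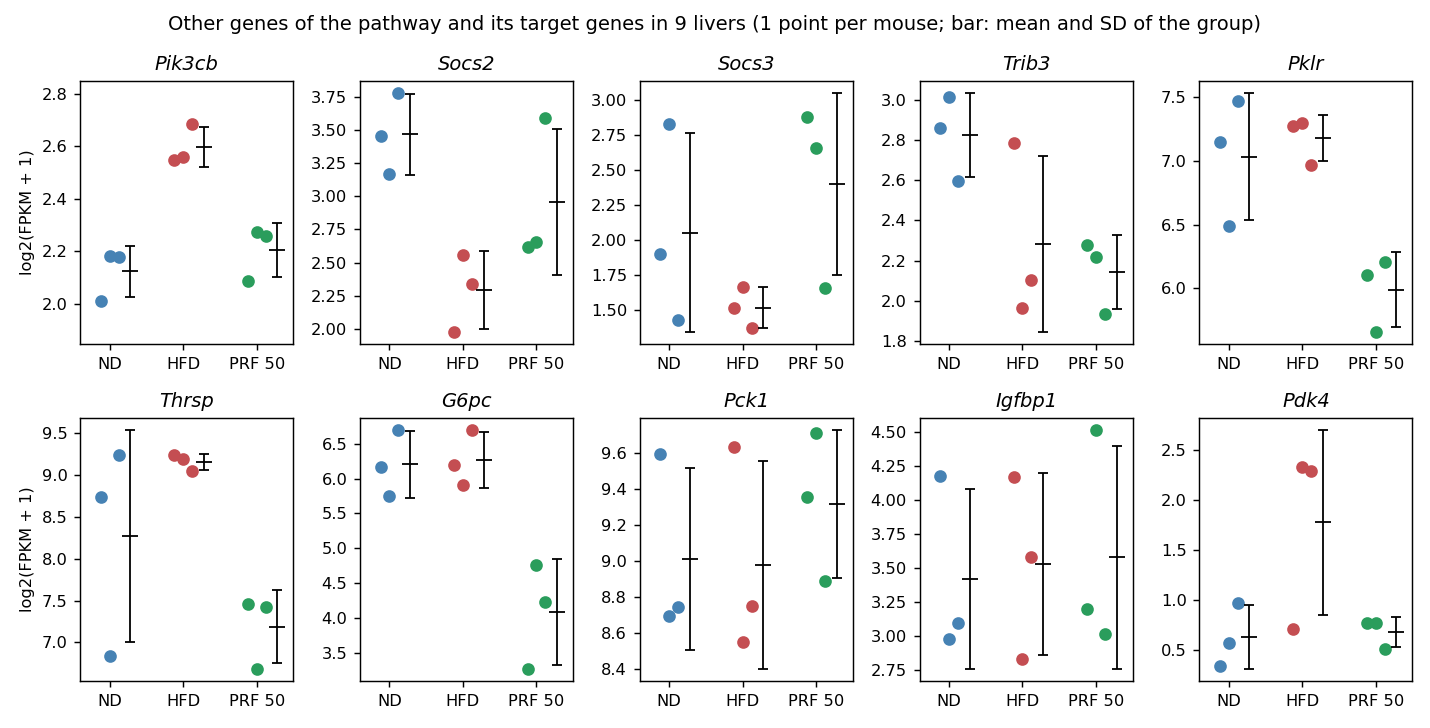
Values of 10 further genes of the pathway and its targets on the log2(FPKM + 1) scale, with 1 point per mouse by group and the mean ± SD of each group beside the points (the y axes differ between genes). G6pc and Pklr separate the 3 PRF 50 mice, with low values, from the other 6, while Pck1 and Igfbp1 overlap between the groups.

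The balance between paralogs or subunits was followed within each mouse as a log2 ratio of FPKM values. The ratio of Akt2 to Akt1 was 0.97, 0.89, and 0.86 in the ND mice, 0.73, 0.79, and 0.83 in the HFD mice, and 0.71, 0.41, and 0.44 in the PRF 50 mice. The groups did not overlap, with the ratio highest in the ND mice and lowest in the PRF 50 mice, and Akt2 was above Akt1 in every mouse. A two-sided exact permutation test gave p = 0.1 in each of the 3 comparisons, the smallest p that 3 against 3 mice allow, and 0.3 after adjustment over 12 tests. This ratio is not independent of the steps of Akt1 given above. In HFD vs. ND and PRF 50 vs. HFD, the log2 differences were 0.20 and 0.31 for Akt1, but 0.09 and 0.06 for Akt2. The ratio of Pik3r1 to Pik3ca was 1.77, 1.41, and 1.69 in the ND mice, 1.62, 1.76, and 1.87 in the HFD mice, and 1.59, 1.37, and 1.54 in the PRF 50 mice. The PRF 50 mice were below all HFD mice (exact permutation p = 0.1, adjusted 0.3), and the ND mice overlapped both groups. In PRF 50 vs. HFD, the log2 difference was -0.32 for Pik3r1 and -0.08 for Pik3ca, so this ratio mostly repeats Pik3r1. Irs2 to Irs1 ranged from -0.59 to 0.98 and Foxo1 to Foxo3 from 0.05 to 1.64, with both extremes of each ratio in the ND group and overlap in all comparisons. The extreme ratios of -0.59 and 1.64 belonged to ND mouse 6.

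For 4 of the genes, the tested genes with the most similar pattern were found by Pearson correlation over the 9 livers among 10048 genes. Insr was most like Mthfd1 (0.92), Tnpo3 (0.92), and Pigo (0.89). Irs1 was most like Arl3 (0.93), Abcc6 (0.89), and Nr0b2 (0.89), and Irs2 was most like Prrc2c (0.94), Ash1l (0.94), and Mbtps2 (0.94). Foxo1 was most like the clock gene Per2 (0.96), Mpv17 (0.96), and Gm19705 (0.92). Per2 had values of 2.11, 1.34, and 1.66 in ND mice, 2.65, 2.08, and 2.31 in HFD mice, and 1.82, 2.20, and 1.99 in PRF 50 mice. As for Foxo1, ND mouse 7 was lowest and HFD mouse 1 highest of all 9 livers. These are the largest of many coefficients over only 9 livers, and they describe these livers only, ND mouse 6 included.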

How the data were processed

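According to the authors, FASTX_Trimmer and BBMap were used to trim the reads, TopHat to map them, Cufflinks to obtain FPKM, and EdgeR for a geometric normalization. The submitters' processing notes name the build mm10, which is the assembly GRCm38. Tool versions and the annotation are not given in the sources used here. The deposited values are on a log2 scale. A pseudocount of 1 is inferred from their lowest value of 0. The added 1 makes differences of weakly expressed genes look smaller than they are.

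The 9 mice were grouped by their labels, as separate animals. Tests used limma (version 3.58.1, functions lmFit and eBayes, trend on) under R (version 4.3.3), with the 6 mice of a comparison, no covariates, and Benjamini-Hochberg adjustment over all genes at 1 FPKM or more on average. The steps were tested on simulated data. For ratios, SciPy (version 1.17.1) gave two-sided exact permutation p-values. Tables used pandas (version 2.3.3) and figures matplotlib (version 3.10.9). Further marker lists had 0 calls by limma in each comparison. At an unadjusted limma p-value under 0.05, the hepatocyte list had 3 lower of 8 tested in HFD vs. ND (15.1% of all tested genes). It had 1 higher and 1 lower of 8 in PRF 50 vs. HFD (20.2%). The endothelial list had 2 lower and then 1 higher of 8 in these comparisons, and the stellate list had 2 higher and then 2 lower of 9. The median log2 differences were -0.30 and then 0.36 for hepatocyte markers and -0.49 and then 0.43 for endothelial markers. For stellate markers, they were 0.32 and then 0.14, against -0.01 and -0.02 over all tested genes. The cholangiocyte list had 1 higher of 2 in PRF 50 vs. ND (12.5% of all tested genes). No lymphocyte marker reached the minimum level. Positions and transcript lengths were taken from GENCODE M21, with lengths for 96.5% of the genes. A gene outside the 10 was named if it was called or had the smallest p of its list in a comparison, if its pattern was most similar, or where the text says so. Some genes were removed from the lists after testing because they are not to be reported, and the list counts and this rule cover the rest. The 10 genes and the lists were chosen with earlier results of these data known. Alternatives were quantile normalization, scaling by the median of ratios, 1 fit of all 9 mice, no variance trend, a pseudocount of 0.1, a minimum of 10 FPKM or none, and leaving out each mouse in turn. Protein sequences were not used here.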

Additional observations from a re-analysis of the deposited data

How the results depend on the processing

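Of 89 differences of single genes, 69 kept their sign in every alternative, and so did 21 of the 30 differences of the 10 core genes. The rest of the 89 belong to pathway genes that were called or had the smallest p of their list. Such a choice from these data favors stable signs. With 3 mice per group, single mice carry much weight. No paired analysis was possible because the groups hold separate animals. Without a minimum level, limma called 37 genes in HFD vs. ND (133 with it), 126 in PRF 50 vs. HFD (362), and 11 in PRF 50 vs. ND (46). With all 9 mice in 1 fit, it called 107 in PRF 50 vs. ND. Leaving out 1 mouse gave 35 (without HFD mouse 3) to 140 (without HFD mouse 1) in HFD vs. ND, 15 (without HFD mouse 3) to 242 (without PRF 50 mouse 9) in PRF 50 vs. HFD, and 4 (without ND mouse 7) to 71 (without PRF 50 mouse 10) in PRF 50 vs. ND.

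Quantile normalization reversed the difference of Mapk3 in PRF 50 vs. ND (0.00542) and that of the ratio of Foxo1 to Foxo3 in PRF 50 vs. ND (0.0323). Median-of-ratios scaling reversed that of Gab1 in PRF 50 vs. HFD (0.00364).

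Some signs changed when 1 mouse was left out. The ranges of the log2 differences in HFD vs. ND were -0.15 to 0.0381 for Insr, -0.14 to 0.11 for Irs1, -0.0200 to 0.0520 for Pik3ca, -0.0656 to 0.0384 for Inppl1, -0.0683 to 0.34 for Gys2, -0.0865 to 0.15 for Tbc1d1, -0.17 to 0.31 for G6pc, and -0.13 to 0.36 for Pklr. Those in PRF 50 vs. HFD were -0.0687 to 0.17 for Insr, -0.27 to 0.0120 for Foxo1, -0.0645 to 0.0713 for Gab1, -0.30 to 0.11 for Trib3, and -0.48 to 0.0868 for Srebf1. Those in PRF 50 vs. ND were -0.0948 to 0.0794 for Insr, -0.19 to 0.0550 for Irs1, -0.32 to 0.0162 for Irs2, -0.0438 to 0.43 for Foxo3, -0.00600 to 0.22 for Sgk1, -0.11 to 0.0377 for Mapk3, and -0.19 to 0.38 for Srebf1. The ratio of Irs2 to Irs1 ranged from -0.73 to 0.0547 in HFD vs. ND and from -0.45 to 0.34 in PRF 50 vs. ND. The ratio of Foxo1 to Foxo3 ranged from -0.38 to 0.42 in HFD vs. ND, from -0.12 to 0.23 in PRF 50 vs. HFD, and from -0.36 to 0.44 in PRF 50 vs. ND.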
